A study of Homo sapiens with 45 samples.

Results

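This comparison set T47D cells carrying the PA form of ZHX2 (3 libraries) against T47D cells carrying wild-type ZHX2 (WT, 3 libraries), which made 6 of the 45 libraries of the study. They were chosen by the names of their columns in the gene count table of the rescue experiment. T47D is a human breast cancer line of the luminal kind that expresses the oestrogen receptor. Both groups carried a hairpin RNA against ZHX2 (shZHX2), were kept in hypoxia, and had been made with lentivirus under hygromycin or puromycin selection, so that they differed by label only in the form of ZHX2 put back. The same experiment held 3 more groups of 3 hypoxic libraries, used here for reference: a control hairpin with empty vector (shCtrl vector), shZHX2 with empty vector (shZHX2 vector), and shZHX2 with a form labelled SA. The labels do not spell out which change PA or SA stands for, nor the oxygen level and length of hypoxia of this experiment. Nor do they state that the replicates came from separate cultures, so the p-values below reflect only how these libraries vary, which may be technical variation. According to the series text, the purpose was to find hypoxia-induced genes that depend on phase separation of ZHX2.

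ZHX2 is a nuclear protein with zinc fingers and homeodomains that binds DNA and regulates transcription. In kidney cancer it is known as a target of the VHL ubiquitin ligase, which marks proteins for breakdown when oxygen is present, and in breast cancer cells it has been tied to genes driven by hypoxia-inducible factor (HIF). HIF itself is a pair of subunits, an oxygen-labile alpha subunit such as HIF1A or EPAS1 and the stable partner ARNT, and it switches on genes of glucose uptake, glycolysis, angiogenesis and matrix remodelling when oxygen is low.

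Total counts were 18413933 to 22896310 per library with WT and 19045652 to 22044832 with PA. Log2 CPM values (CPM is a gene's count relative to the scaled size of its library) correlated across genes at 0.993 to 0.994 between libraries of 1 group and at 0.966 to 0.968 between WT and PA libraries; genes are not independent replicates. Mitochondrial genome genes took 0.312 to 0.333% of counts with WT and 1.16 to 1.26% with PA, against 0.749 to 0.807% in both vector groups and 1.12 to 1.19% with SA, so the WT libraries stood apart as the lowest of the 5 groups; the part of this in the other differences was not tested. The summed level of 8 luminal marker genes was 44196 to 44868 CPM with WT and 29208 to 29422 CPM with PA. Its members weighed unequally, since KRT18 averaged 5928 CPM with WT and 3502 CPM with PA, and GATA3 336 and 158 CPM. Basal markers (3 of 4 tested) summed to 1260.2 to 1266 CPM with WT and 1831 to 1911 CPM with PA, nearly all of it KRT17, since KRT5 and KRT14 stayed below 1 CPM in all 6 libraries. Fibroblast markers (1 of 6 tested, COL1A1) summed to 13.2 to 15.5 and 18.2 to 20.2 CPM. The call of COL1A1 (log2 fold change 0.42) was lost with offsets for GC content and length (0.08, adjusted p = 0.337), and ACTA2, a marker of myofibroblasts, was called lower with PA (-0.48, adjusted p = 7.25e-07). Leukocyte markers summed to at most 0.114 CPM, with PTPRC and LYZ at 0 in all 6 libraries, and endothelial markers to at most 0.409 CPM.

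The ZHX2 transcript itself (ENSG00000178764, chr8:122781394-122974512, plus strand, GRCh38) was less abundant with PA than with WT. It stood at 73.98, 71.8 and 71.3 CPM with WT and 54.4, 53.6 and 53.8 CPM with PA. The groups did not overlap (log2 fold change -0.42, SE 0.04, adjusted p = 9.66e-15). Both were above the 31.99 ± 1.99 CPM (mean ± SD, n = 3) of shCtrl vector and the 6.86 ± 0.545 CPM of shZHX2 vector cells, and SA stood at 80.5 ± 2.26 CPM. The part of this 1.34-fold lower transcript level in the differences below was not tested, and the files hold no protein level.

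A large part of the transcriptome differed between PA and WT libraries, about evenly in both directions. Of 14302 genes tested, 4742 (33.2%) were called higher and 4826 (33.7%) lower with PA, where a call is an adjusted p under 0.05 in edgeR's quasi-likelihood test. With library size as the only scaling the median of all genes moved up by 0.25 on the log2 scale and the split became 7012 higher and 2913 lower, so changes here are relative to the bulk of genes. Most changes were small, since the median absolute log2 fold change was 0.41 and the 5th and 95th percentiles were -1.04 and 1.20. At least 2-fold changes were called for 1060 genes higher (7.41%) and 764 lower (5.34%), and at least 4-fold ones for 125 and 74. The lowest PA library was above the highest WT library for 4949 genes (34.6%), and the highest PA library was below the lowest WT library for 4979 (34.8%).

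**Figure D1:**
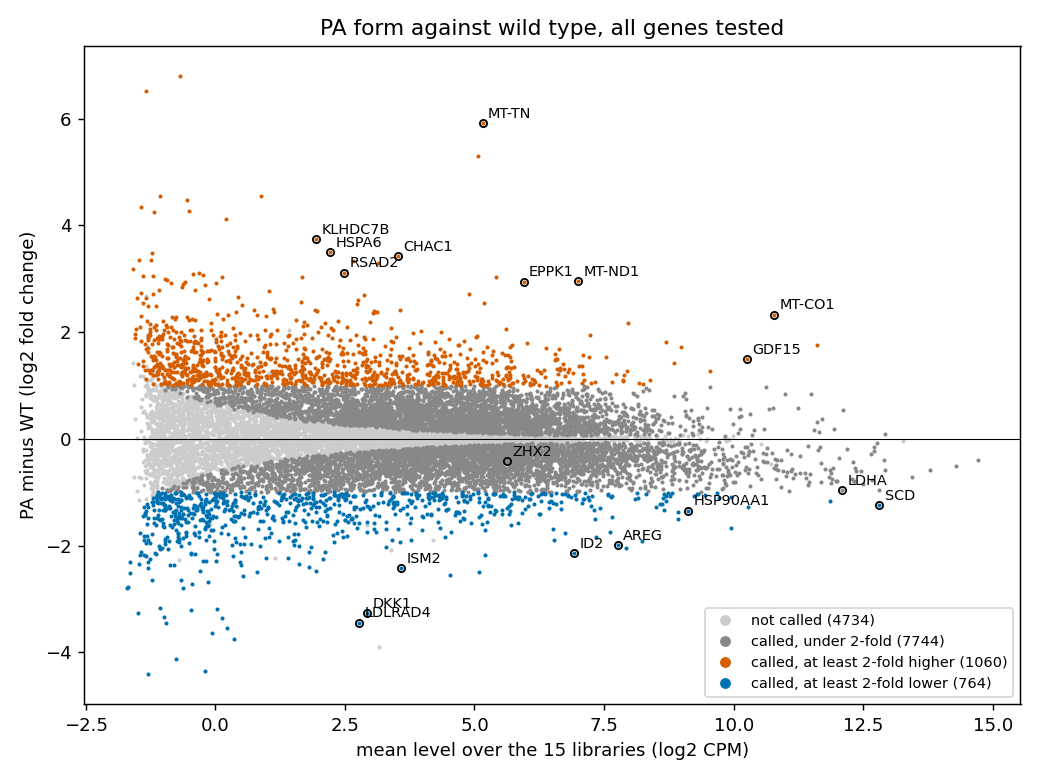
Each point is 1 of 14302 genes, with the mean log2 CPM over the 15 libraries of the rescue experiment on the x axis and the log2 fold change of PA over WT on the y axis. Colours mark the 1060 genes called at least 2-fold higher and the 764 called at least 2-fold lower with PA, and the named genes are circled.

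The 12 largest falls among called genes with a mean log2 CPM of at least 1 included the secreted regulators DKK1 and TFPI. LDLRAD4, an inhibitor of TGF-beta signalling (chr18:13217498-13652755, plus strand), was at 15.4, 17.1 and 16.8 CPM with WT and 1.61, 1.40 and 1.48 CPM with PA, a 10.9-fold difference (log2 fold change -3.45, SE 0.13, adjusted p = 1.69e-37). DKK1, a secreted inhibitor of Wnt signalling (chr10:52314296-52318042, plus strand), was at 20.1, 19.6 and 19.5 CPM with WT and 2.15, 1.78 and 2.25 CPM with PA (log2 fold change -3.26, SE 0.12, adjusted p = 6.72e-39). For both genes no PA library came near the lowest WT library. ID2, which encodes a helix-loop-helix protein that blocks DNA binding by its partners (chr2:8678845-8684453, plus strand), was at 222, 222 and 234 CPM with WT and 49.2, 52.3 and 51.9 CPM with PA (log2 fold change -2.14, SE 0.04, adjusted p = 6.40e-62). In each case the PA libraries lay close to the shZHX2 vector cells, whose means were 1.95 CPM for LDLRAD4, 1.24 for DKK1 and 44.6 for ID2, and the WT libraries close to the shCtrl vector means of 13.9, 15.5 and 235 CPM. ISM2 fell by 2.43 on the log2 scale, TFPI, an inhibitor of the start of blood clotting, by 2.26, AFAP1L2 by 2.35, CSF1R, a receptor of macrophage growth factor, by 2.23, AGMAT by 2.39 and the reductase gene DHRS2 by 2.17. The antisense gene TM4SF18-AS1 fell by 2.55 and LBHD1 by 2.48; the strand setting of the counting is not given in the sources used here, so reads of overlapping genes cannot be told apart there.

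By the same rule the 12 largest rises included the stress genes CHAC1 and HSPA6, the interferon-induced gene RSAD2 and 4 transcripts of the mitochondrial genome. CHAC1, a glutathione-degrading enzyme gene switched on by ATF4 (chr15:40952962-40956519, plus strand), was at 1.18, 1.23 and 1.76 CPM with WT and 14.2, 14.5 and 15.98 CPM with PA (log2 fold change 3.42, SE 0.13, adjusted p = 3.72e-38). HSPA6, an inducible HSP70 chaperone gene (chr1:161524540-161526910, plus strand), was at 0.756, 0.409 and 0.569 CPM with WT and 7.32, 5.78 and 7.18 CPM with PA (log2 fold change 3.50, SE 0.19, adjusted p = 7.88e-28), with the reservation that it shares sequence with HSPA7. RSAD2, which encodes the antiviral protein viperin (chr2:6865806-6898239, plus strand), was at 0.851, 0.643 and 1.19 CPM with WT and 8.02, 8.01 and 7.32 CPM with PA (log2 fold change 3.11, SE 0.17, adjusted p = 1.96e-28). All 3 were low in every WT library and in shCtrl vector cells (1.53, 0.745 and 0.819 CPM) and high in every PA library and in shZHX2 vector cells (23.4, 7.63 and 9.01 CPM). KLHDC7B rose by 3.74 on the log2 scale, STMN4, a stathmin that binds tubulin, by 3.34, the microRNA host gene MIR22HG by 3.29, the homeobox gene HOXB9 by 3.03 and the cytolinker gene EPPK1 by 2.94. EPPK1 went from 12.5 CPM with WT to 96.5 CPM with PA, with shCtrl vector cells between them at 40.2 CPM. The other 4 of the 12 largest rises, MT-TN, MT-TC, MT-ND6 and MT-ND1, are described with the mitochondrial genes.

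**Figure D2:**
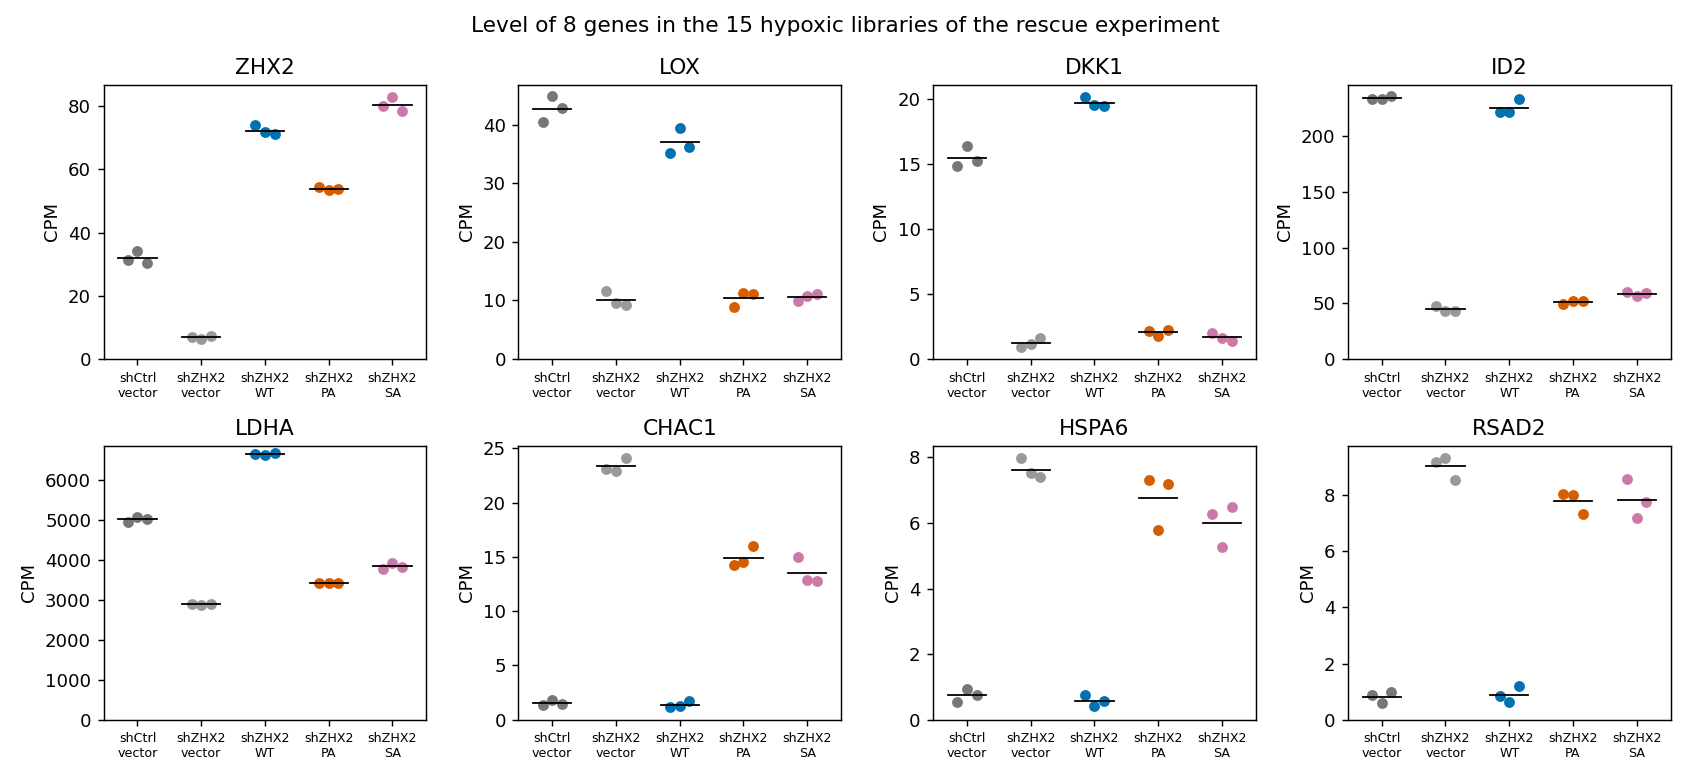
Each panel shows 1 gene, each point 1 library and each bar the mean of 3 libraries, in CPM on a linear axis from 0, for the 5 groups of the rescue experiment. For LOX, DKK1 and ID2 the PA and SA points lie near shZHX2 vector and the WT points near or above shCtrl vector, for LDHA the PA and SA points lie between the vector groups and the WT points above both, and for CHAC1, HSPA6 and RSAD2 the WT points lie with shCtrl vector.

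Genes that depended on ZHX2 in other libraries were then followed into the comparison. The contrasts that chose the 3 sets held no PA or WT library, although the filter, scaling and dispersions behind sets a and b came from the fit of all 15 libraries. Set a held the 1030 genes called at least 2-fold lower in shZHX2 vector than in shCtrl vector cells (7.20% of genes tested), and set b the 1029 genes called at least 2-fold higher there (7.19%). In set a, 780 genes (75.7%) were lower with PA than with WT, 18 were higher and 232 were not called, against 33.7% lower and 33.2% higher over all genes, and 389 fell at least 2-fold. The median log2 fold change of set a was -0.83, against 0.00 over all genes. In set b, 754 genes (73.3%) were higher with PA, 31 lower and 244 not called, 451 rose at least 2-fold, and the median was 0.91. Read from the other side, 591 of the 764 genes at least 2-fold lower with PA (77.4%) were called lower in shZHX2 vector than in shCtrl vector cells and 13 were called higher, where the background was 35.3% lower and 33.9% higher. Of the 1060 genes at least 2-fold higher with PA, 788 (74.3%) were called higher with shZHX2 vector and 28 lower.

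Of the members with the largest response to the hairpin, SIK1 was not called and the others moved in the direction of their set. In set a these included DKK1 and LDLRAD4, given above, FAM153CP (log2 fold change -1.90) and VTCN1, which encodes the immune checkpoint ligand B7-H4. VTCN1 was at 3.12, 3.86 and 3.70 CPM with WT and 0.579, 1.28 and 1.10 CPM with PA (log2 fold change -1.84, SE 0.20, adjusted p = 7.07e-13), so that the groups did not overlap, against 7.17 ± 0.406 CPM in shCtrl vector cells. The kinase gene SIK1 was at 0.214 CPM with WT and 0.233 CPM with PA (log2 fold change 0.10, SE 2.48, adjusted p = 0.975), and its counts are uncertain because the near-identical copy SIK1B can share reads. In set b, the axon guidance gene SEMA6A rose by 1.38 and the antisense gene NECTIN3-AS1 by 2.77, and STMN4, CHAC1 and RSAD2, given above, were further members. The direction of the hairpin effect was not the same everywhere. In another shZHX2 experiment of the study, also in hypoxia, CHAC1 (-1.83) and HSPA6 (-0.71) were lower with the hairpin. SEMA6A was higher there (1.46), and DKK1 (-2.56), LDLRAD4 (-1.52) and VTCN1 (-1.14) were lower. Since the vector libraries chose sets a and b, their medians against vector are a description: set a was at 1.12 for WT over vector and at 0.26 for PA over vector, and set b at -1.08 and -0.22.

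Set c came from another table of the study and followed the series text more closely: 451 genes called at least 2-fold higher in hypoxia than in normoxia (15.3% of that table's genes) and at least 2-fold lower with shZHX2 in hypoxia (9.64%). Of these, 326 could be tested here, of which 143 (43.9%) were lower with PA, 67 (20.6%) higher and 116 not called, with 57 at least 2-fold lower and 19 at least 2-fold higher; over all genes 33.7% were lower and 33.2% higher. The median was -0.27. Under library size scaling the counts were nearly even, at 106 lower and 98 higher, with a median of -0.03. Within the rescue experiment set c had a median of -0.40 for shZHX2 vector over shCtrl vector. Its median was 0.11 for WT over vector and -0.13 for PA over vector, so WT raised the set little. The 6 members with the largest response to shZHX2 in the other table went both ways. PKP1, a desmosome protein gene, was at 48.5, 48.9 and 47.4 CPM with WT and 34.1, 33.97 and 34.2 CPM with PA (log2 fold change -0.50, SE 0.05, adjusted p = 6.66e-16). SPDYC had a log2 fold change of -0.999, the adenosine receptor gene ADORA2B of -0.82 and ID1, a relative of ID2, of -0.56, all called lower. SMIM10L2A rose by 0.96 and SHF was not called (0.15, adjusted p = 0.522). WT was above vector for PKP1 (0.84), ADORA2B (0.78) and SPDYC (0.63), but not for ID1 (-0.03), SHF (-0.67) or SMIM10L2A (-0.95). SMIM10L2A was itself higher in shZHX2 vector than in shCtrl vector cells (0.62).

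**Figure D3:**
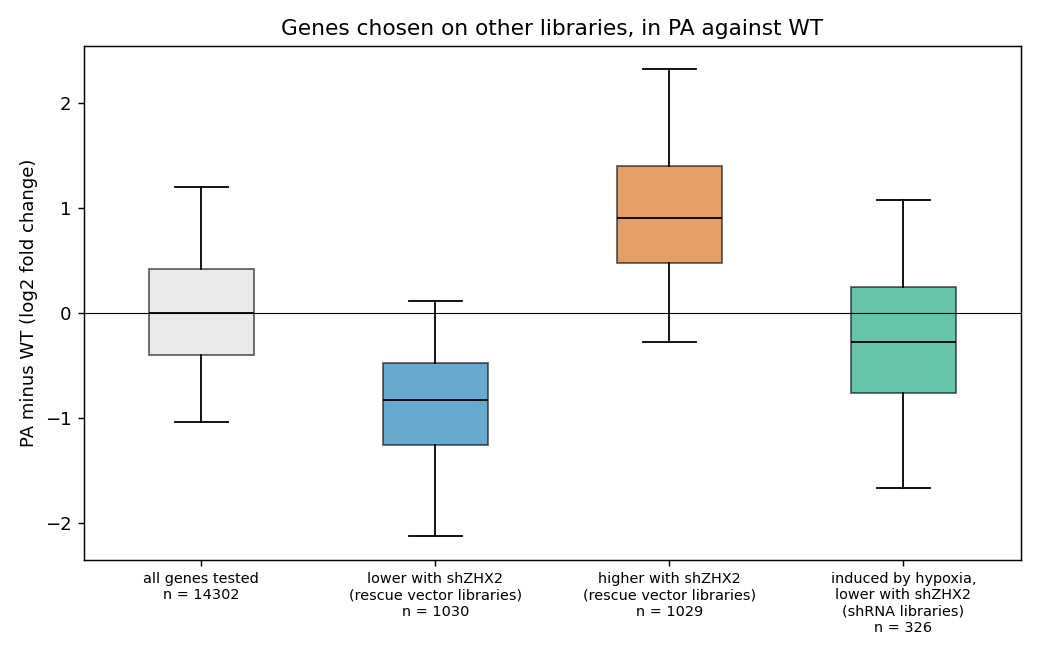
Boxes give the median and quartiles and whiskers the 5th and 95th percentiles of the log2 fold change of PA over WT, for all 14302 genes tested and for sets a (1030 genes), b (1029) and c (326). The box of set a lies below 0 and that of set b above 0, while the box of set c crosses 0.

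Genes of the hypoxia response were lower with PA in most cases. Of 31 members tested, 25 were called lower, 4 higher and 2 not called, with a median log2 fold change of -0.77; over all genes the calls were 33.7% lower and 33.2% higher. LOX, a collagen cross-linking enzyme gene (chr5:122063195-122078360, minus strand), was at 35.1, 39.5 and 36.3 CPM with WT and 8.85, 11.2 and 11.1 CPM with PA (log2 fold change -1.83, SE 0.07, adjusted p = 3.20e-32). PPP1R3C, a glycogen regulator gene, fell by 1.95, the secreted glycoprotein gene STC1 by 1.71, ANGPTL4, an inhibitor of lipoprotein lipase, by 1.67, and CITED2, which encodes a competitor of HIF for its coactivators, by 1.51. The HIF prolyl hydroxylase gene EGLN3 fell by 1.12 and the mitophagy receptor gene BNIP3 by 1.11. The list holds genes widely used as markers of the hypoxia response, whether or not hypoxia raised them in these cells. It was written with earlier results of these data known. In the libraries that chose set c, STC1 was lower in hypoxia than in normoxia (-0.47) and higher with shZHX2 (0.52). LOX was higher in hypoxia there (4.22) and also higher with shZHX2 (0.49). NDRG1, an abundant hypoxia marker, was at 4792, 4812 and 4815 CPM with WT and 2934, 2949 and 2944 CPM with PA (log2 fold change -0.71, SE 0.02, adjusted p = 8.79e-41). CA9, which encodes the cell surface carbonic anhydrase, changed less, at 205, 209 and 205 CPM with WT and 168, 161 and 164 CPM with PA (log2 fold change -0.33, SE 0.03, adjusted p = 2.13e-16). For each of LOX, NDRG1 and CA9 all PA libraries were below all WT libraries. The 4 members called higher were the angiogenic factor gene VEGFA (0.21), the collagen hydroxylase gene P4HA1 (0.18) and the histone demethylase genes KDM3A (0.44) and KDM4B (0.28). With offsets for GC content and length VEGFA was called lower (-0.08, adjusted p = 0.0028) and KDM4B lost its call (-0.04, adjusted p = 0.328). JMJD6 (-0.03) and NDUFA4L2 (0.24) were not called. JMJD6 was called lower with the same offsets (-0.16, adjusted p = 1.99e-04), and NDUFA4L2 higher under library size scaling (0.49, adjusted p = 0.012).

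Promoter windows of 2 genes of this group are shown because HIF binds a short core, ACGTG or GCGTG. Both are from RefSeq on GRCh38.p14, 250 bases before to 50 bases after a transcription start, written 5′ to 3′ on the gene's strand, with each core in capitals on whichever strand it was found (CACGT is ACGTG on the other strand). CA9 is at chr9:35673678-35673977, plus strand, and LOX, 1 of its 3 windows, at chr5:122078210-122078509, minus strand.
CA9: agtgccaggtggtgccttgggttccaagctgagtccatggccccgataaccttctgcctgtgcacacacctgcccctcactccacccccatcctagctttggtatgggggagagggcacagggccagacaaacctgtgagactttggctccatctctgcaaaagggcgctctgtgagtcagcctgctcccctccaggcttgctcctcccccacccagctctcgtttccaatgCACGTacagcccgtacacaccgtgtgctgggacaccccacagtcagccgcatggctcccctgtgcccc
LOX: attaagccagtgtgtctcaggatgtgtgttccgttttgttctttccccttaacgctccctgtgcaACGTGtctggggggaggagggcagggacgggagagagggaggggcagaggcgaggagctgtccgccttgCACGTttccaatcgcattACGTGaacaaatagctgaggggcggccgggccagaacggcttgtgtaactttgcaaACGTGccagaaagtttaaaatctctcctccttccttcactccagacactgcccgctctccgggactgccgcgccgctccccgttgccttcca
The CA9 window held 1 match and the LOX window 4. The LOX window was taken as the first of its 3 that held a core, so that choice fixed the presence of a match. The A form of the core was in 29.3% of the 761 windows of genes at least 2-fold lower with PA, in 21.3% of the 954 windows of genes at least 2-fold higher, and in 25.6% of the 15220 windows of all genes tested. The G form was in 42.2%, 49.4% and 48.8% of them, and either form in 56.6%, 60.4% and 61.1%. These shares describe letters in a window and not binding.

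Glycolysis genes were mostly lower too: 17 of 20 members were called lower, none higher, with a median of -0.39. The counts of this and every later list stand beside 33.7% lower and 33.2% higher over all genes. LDHA, which makes lactate from pyruvate (chr11:18394388-18408425, plus strand), was at 6644, 6638 and 6676 CPM with WT and 3415, 3418 and 3431 CPM with PA (log2 fold change -0.96, SE 0.02, adjusted p = 6.09e-49). ENO1, the enolase gene, was at 7801, 7604 and 7839.6 CPM with WT and 4288, 4374 and 4199.7 CPM with PA (log2 fold change -0.85, SE 0.02, adjusted p = 1.63e-45). The groups did not overlap for either gene, and the difference was 1.94-fold for LDHA and 1.81-fold for ENO1. The neuronal-type glucose transporter gene SLC2A3 fell by 1.31 and the common one, SLC2A1, by 0.80. ALDOA (-0.04), HK2 (0.01) and the lactate exporter gene SLC16A3 (0.11) were not called. With library size as the only scaling HK2 (0.25) and SLC16A3 (0.35) were called higher. SLC16A3 was also called higher in the fit of the 6 libraries (0.12, adjusted p = 0.046) and without WT replicate 3 (0.15, adjusted p = 0.029). ALDOA was called lower without WT replicate 1 (-0.08, adjusted p = 0.024). Scaled by library size alone, the list counted 11 lower and 6 higher with a median of -0.14.

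Oxygen sensing factors and the relatives of ZHX2 were split. Of 11 members tested of a list of other ZHX genes and oxygen sensing factors, which also held RELA and CTCF, 6 were called higher and 4 lower, with a median of 0.34. VHL was at 18.8, 18.5 and 17.01 CPM with WT and 36.4, 33.97 and 34.3 CPM with PA (log2 fold change 0.94, SE 0.06, adjusted p = 2.10e-24). EPAS1, the gene of HIF-2 alpha, was at 2.13, 2.92 and 1.76 CPM with WT and 4.55, 4.38 and 4.59 CPM with PA (log2 fold change 0.99, SE 0.16, adjusted p = 4.57e-08). The dimerisation partners of ZHX2, ZHX3 (0.74) and ZHX1 (0.36), the prolyl hydroxylase gene EGLN2 (0.64) and the NF-kB subunit gene RELA (0.34) were also called higher. HIF1A (-0.31), ARNT2 (-0.63), ARNT (-0.19) and CTCF (-0.15) were called lower, and HIF1AN was not called (0.03). Under library size scaling HIF1A lost its call (-0.06, adjusted p = 0.285), ARNT turned to 0.06 and CTCF to 0.09. HIF1AN was called higher under that scaling (0.28, adjusted p = 5.74e-08). Genes of CTCF and cohesin, which fold chromatin into loops, had 8 of 13 members lower and 2 higher with a median of -0.17, which flipped to 0.08 with library size as the only scaling. STAG2, a cohesin subunit gene, was at 57.1, 58.3 and 56.9 CPM with WT and 29.97, 34.6 and 30.8 CPM with PA (log2 fold change -0.85, SE 0.05, adjusted p = 2.65e-26). MAU2 (0.12) and SMC1A (0.21) were the 2 called higher, and MAU2 lost its call without PA replicate 1 or 2 or without WT replicate 1 or 2 (adjusted p = 0.062, 0.328, 0.053 and 0.114) as well as under DESeq2 (0.126) and with no filter on low counts (0.168). With the GC and length offsets MAU2 was called lower (-0.11, adjusted p = 0.030) and SMC1A lost its call (0.03, adjusted p = 0.547), which left none of the list higher.

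**Figure D4:**
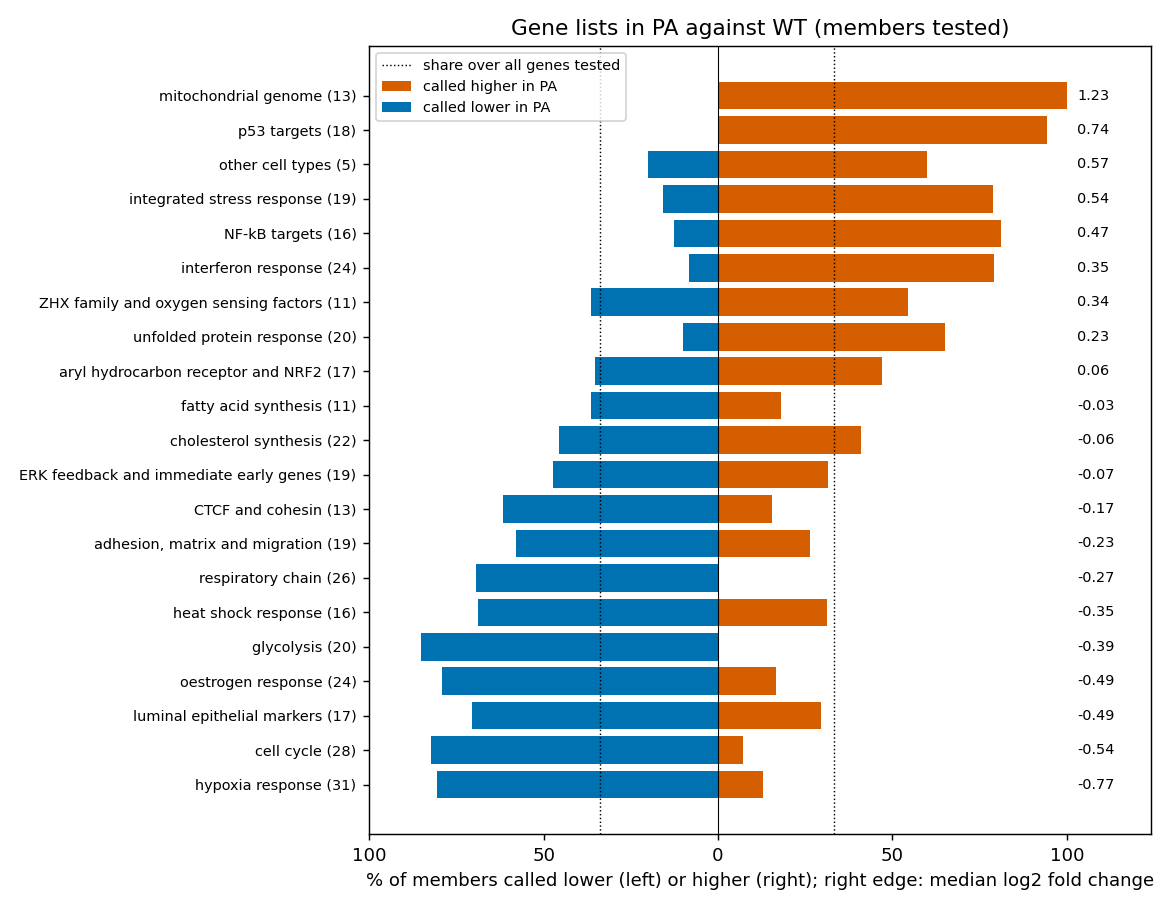
For each gene list, bars to the left give the % of members tested that were called lower with PA and bars to the right the % called higher, with the number tested in brackets and the median log2 fold change at the right edge. Dotted lines mark the shares over all genes, 33.7% lower and 33.2% higher. With library size as the only scaling, the medians of the lists of CTCF and cohesin, adhesion, ERK, cholesterol and fatty acid genes turn positive.

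Genes of the luminal and oestrogen programme were mostly lower with PA. In the oestrogen response list 19 of 24 members were called lower and 4 higher, with a median of -0.49. ESR1, the oestrogen receptor alpha gene (chr6:151656691-152129619, plus strand), was at 44.7, 42.98 and 42.8 CPM with WT and 18.7, 19.8 and 19.2 CPM with PA (log2 fold change -1.18, SE 0.06, adjusted p = 2.26e-30). AREG, which encodes a ligand of the EGF receptor, was at 395, 387 and 392 CPM with WT and 100.5, 94.8 and 99.9 CPM with PA (log2 fold change -1.99, SE 0.03, adjusted p = 1.50e-62). The growth regulator gene MYC was at 583, 587 and 579 CPM with WT and 244, 246 and 263 CPM with PA (log2 fold change -1.22, SE 0.03, adjusted p = 1.09e-51). None of these 3 genes had a PA library within the WT range. The progesterone receptor gene PGR fell by 0.90. TFF3 (1.29), the amino acid transporter gene SLC7A5 (0.53), the corepressor gene NRIP1 (0.39) and IGFBP4 (0.15) were called higher, and RET was not called (0.02). With library size as the only scaling RET was called higher (0.26, adjusted p = 1.88e-04). NRIP1 lost its call without PA replicate 1 (0.17, adjusted p = 0.463) or 2 or without WT replicate 1, 2 or 3 (adjusted p = 0.060 to 0.129 in these 4), and also under DESeq2 (0.191) and with no filter on low counts (0.095). IGFBP4 lost its call with the GC and length offsets (0.05, adjusted p = 0.085). Of 17 luminal epithelial markers, 12 were lower and 5 higher with a median of -0.49. GATA3, a luminal transcription factor gene, was at 327, 338 and 344 CPM with WT and 161, 159 and 156 CPM with PA (log2 fold change -1.08, SE 0.03, adjusted p = 7.17e-47), and the keratin genes KRT18 (-0.76), KRT19 (-0.72) and KRT8 (-0.51) were lower too. The 5 called higher were TFAP2A (0.53), AGR2 (0.34), MUC1 (0.10), CLDN7 (0.09) and CLDN4 (0.07). With the GC and length offsets MUC1 (-0.24) and CLDN4 (-0.12) were called lower (adjusted p = 8.77e-13 and 8.29e-06). CLDN4 lost its call without any 1 of the PA libraries (adjusted p = 0.079 to 0.116), and CLDN7 without PA replicate 1 or WT replicate 2 (adjusted p = 0.067 and 0.060). FOXA1 was among the 12 lower (-0.20), at 0.05 with library size as the only scaling. The basal keratin gene KRT17 rose by 0.57; in bulk RNA fewer cells of a kind and less RNA per cell cannot be told apart.

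Growth factor signalling and adhesion genes moved in both directions. In the list of ERK feedback and immediate early genes 9 of 19 were lower (47.4%) and 6 higher (31.6%), against 33.7% and 33.2% over all genes. The median was -0.07 and flipped to 0.18 with library size as the only scaling. FOS, an immediate early transcription factor gene, was at 164, 163 and 164 CPM with WT and 51.6, 50.3 and 50.5 CPM with PA (log2 fold change -1.69, SE 0.03, adjusted p = 2.83e-55), and EGR1 fell by 1.48. ETV5, a target of ERK signalling, was at 0.236, 0.0585 and 0.114 CPM with WT and 0.744, 0.867 and 0.479 CPM with PA (log2 fold change 2.26, SE 0.52, adjusted p = 9.55e-05), which is a rise from a very low level. In the list of adhesion, matrix and migration 11 of 19 tested of 33 were lower and 5 higher, with a median of -0.23 that flipped to 0.01 with library size as the only scaling. The growth factor gene TGFB2 fell by 1.52, the matricellular gene CCN1 by 1.39, the integrin gene ITGB6 by 1.23, the hyaluronan receptor gene CD44 by 1.12 and the urokinase receptor gene PLAUR by 1.08. SNAI1 (1.53), CDH3 (0.66), L1CAM (0.51), TGFB1 (0.37) and ITGB4 (0.15) were called higher. With the GC and length offsets ITGB4 was called lower (-0.20, adjusted p = 9.7e-07).

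Cell cycle genes were mostly lower and p53 targets mostly higher. Of 28 cell cycle genes 23 were called lower and 2 higher, with a median of -0.54. CCNB1, the mitotic cyclin B1 gene, was at 54.6, 52.3 and 55.3 CPM with WT and 23.3, 22.7 and 22.1 CPM with PA (log2 fold change -1.25, SE 0.05, adjusted p = 1.19e-35), and MCM2, a subunit of the replicative helicase, fell by 0.94 and CDK1 by 0.88. The S-phase cyclin gene CCNE1 rose by 1.01, and the proliferation marker gene MKI67 by 0.23, whose call was lost with the GC and length offsets (0.02, adjusted p = 0.841). Of 18 p53 targets 17 were called higher and none lower, with a median of 0.74. TP53INP1, an inducer of cell death and autophagy, was at 17.4, 16.8 and 16.6 CPM with WT and 55.3, 56.4 and 56.3 CPM with PA (log2 fold change 1.72, SE 0.06, adjusted p = 3.16e-42), without overlap. The cell cycle inhibitor gene CDKN1A rose by 0.84, the RNA-binding protein gene ZMAT3 by 1.52 and MDM2, which encodes the ligase that degrades p53, by 0.46, while BAX was not called (0.00). BAX was called higher under library size scaling (0.25, adjusted p = 0.006).

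Genes of stress pathways were mostly higher with PA, while those of the heat shock list, described after them, were mostly lower. In the integrated stress response, which runs through the transcription factor ATF4, 15 of 19 tested were higher and 3 lower, with a median of 0.54. ASNS, the asparagine synthetase gene, was at 3.36, 2.63 and 2.73 CPM with WT and 8.27, 8.88 and 9.52 CPM with PA (log2 fold change 1.60, SE 0.12, adjusted p = 7.75e-20). GDF15, a secreted stress cytokine that is also on the p53 list, was at 604, 596 and 592 CPM with WT and 1682, 1673 and 1669 CPM with PA (log2 fold change 1.49, SE 0.03, adjusted p = 2.74e-59). The WT and PA ranges of both were far apart. DDIT3, the CHOP gene, rose by 1.44, NUPR1 by 1.57 and ATF4 itself by 0.34. VLDLR (-0.44), STC2 (-0.25) and SLC3A2 (-0.13) were the 3 lower, and with library size as the only scaling SLC3A2 turned to 0.12 and STC2 lost its call. SHMT2 was not called (0.04), but was called higher under that scaling (0.29, adjusted p = 5.55e-15).

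In the unfolded protein response of the endoplasmic reticulum 13 of 20 were higher and 2 lower, with a median of 0.23. HERPUD1, an adaptor of protein degradation at that membrane, was at 70.999, 68.8 and 68.9 CPM with WT and 198, 207 and 203 CPM with PA (log2 fold change 1.54, SE 0.03, adjusted p = 4.99e-53). The sensor gene ERN1 rose by 1.57 and the chaperone gene HSPA5 by 0.97, whereas CANX (-0.25) and XBP1 (-0.21) were lower. XBP1 turned to 0.04 with library size as the only scaling and to 0.03 with the GC and length offsets, and CANX lost its call under the former.

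In the heat shock list, which held no HSPA6, 11 of 16 were lower and 5 higher with a median of -0.35; under library size scaling 8 were lower and 5 higher with a median of -0.10. HSP90AA1, the inducible HSP90 gene, was at 1081, 1075 and 1090.5 CPM with WT and 415, 423 and 437 CPM with PA (log2 fold change -1.35, SE 0.03, adjusted p = 1.80e-55), and the mitochondrial chaperonin genes HSPD1 and HSPE1 fell by 1.11 and 0.79. WT was also above shCtrl vector cells for HSP90AA1, which stood at 470.3 ± 11.6 CPM there. DNAJB4 (0.37), HSPA4 (0.36), DNAJB1 (0.29), DNAJA1 (0.27) and the master regulator gene HSF1 (0.13) were called higher. With the GC and length offsets HSF1 was called lower (-0.13, adjusted p = 7.6e-05).

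Interferon and NF-kB genes were mostly higher with PA. Of 24 interferon response genes tested 19 were called higher and 2 lower, with a median of 0.35. IFI44L was at 29.7, 28.1 and 24.2 CPM with WT and 78.1, 80.5 and 85.04 CPM with PA (log2 fold change 1.56, SE 0.05, adjusted p = 1.04e-34), IFIT2 rose by 1.45 and OASL by 1.18, besides RSAD2. IFIT1 (-0.22) and IFITM3 (-0.10) were the 2 lower. Under library size scaling they turned to 0.03 and 0.14, and IFITM3 to 0.03 with the GC and length offsets. The interferon genes themselves moved from low levels. IFNB1, the interferon beta gene, was at 0.851, 0.760 and 0.398 CPM with WT and 4.05, 4.50 and 3.64 CPM with PA (log2 fold change 2.57, SE 0.22, adjusted p = 1.77e-17). IFNL1, an interferon lambda gene, was at 2.69, 2.40 and 2.39 CPM with WT and 13.3, 12.5 and 13.6 CPM with PA (log2 fold change 2.38, SE 0.12, adjusted p = 3.39e-31). For both, every PA library was above every WT library, and shZHX2 vector cells stood at 4.37 ± 0.225 and 15.1 ± 0.843 CPM. Of 16 NF-kB targets tested 13 were higher and 2 lower, with a median of 0.47. RELB was at 21.3, 21.1 and 21.8 CPM with WT and 44.3, 41.2 and 43.2 CPM with PA (log2 fold change 1.00, SE 0.05, adjusted p = 9.89e-29). The neutrophil chemokine genes CXCL3, CXCL1 and CXCL2 rose by 1.49, 1.29 and 1.19, but each had a mean log2 CPM under 1. CXCL3 was at 0.189, 0.351 and 0.683 CPM with WT and 1.36, 0.991 and 1.01 CPM with PA. ICAM1 (-0.52) and NFKB1 (-0.27) were lower, the latter without a call under library size as the only scaling.

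Windows of 3 strongly raised stress and interferon genes are shown for the elements their families are known for. These are the C/EBP-ATF element bound by ATF4 (searched as TGATGNAAN), the heat shock element (GAANNTTC) and the interferon stimulated response element (searched as GAAA repeated after any 2 bases), on both strands, with matches in capitals. They are RefSeq windows on GRCh38.p14 of the same length as above: CHAC1 at chr15:40953221-40953520, HSPA6 at chr1:161524290-161524589 and RSAD2, 1 of its 2 windows, at chr2:6877527-6877826, all plus strand.
CHAC1: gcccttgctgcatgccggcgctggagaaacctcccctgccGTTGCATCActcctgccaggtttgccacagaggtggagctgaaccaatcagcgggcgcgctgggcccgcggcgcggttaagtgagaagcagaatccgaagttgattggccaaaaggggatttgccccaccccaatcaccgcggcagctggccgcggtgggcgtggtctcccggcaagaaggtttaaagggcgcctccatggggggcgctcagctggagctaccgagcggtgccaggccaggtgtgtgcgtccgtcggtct
HSPA6: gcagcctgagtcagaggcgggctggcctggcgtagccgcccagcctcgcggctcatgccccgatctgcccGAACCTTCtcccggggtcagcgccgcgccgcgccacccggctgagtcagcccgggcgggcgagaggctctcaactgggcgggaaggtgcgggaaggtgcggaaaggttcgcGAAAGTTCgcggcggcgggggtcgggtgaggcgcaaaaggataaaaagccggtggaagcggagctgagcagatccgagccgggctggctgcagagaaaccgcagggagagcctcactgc
RSAD2: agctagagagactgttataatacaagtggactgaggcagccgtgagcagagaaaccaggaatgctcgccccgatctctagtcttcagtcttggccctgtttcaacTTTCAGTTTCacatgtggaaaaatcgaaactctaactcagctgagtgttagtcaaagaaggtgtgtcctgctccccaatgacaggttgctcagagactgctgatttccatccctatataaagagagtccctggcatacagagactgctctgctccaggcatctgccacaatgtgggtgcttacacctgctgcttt
CHAC1 and RSAD2 held 1 match each and HSPA6 held 2. The RSAD2 window was taken as the first of its 2 that held a match, so that choice fixed the presence of a match. The 3 elements were in 2.83%, 4.40% and 3.46% of windows of genes at least 2-fold higher with PA, in 1.58%, 4.86% and 2.37% of windows of genes at least 2-fold lower, and in 1.91%, 4.78% and 2.71% of all windows. These motifs and genes were chosen after the values were seen.

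Transcripts of the mitochondrial genome were higher with PA for all 13 protein-coding genes, with a median log2 fold change of 1.23. MT-CO1, a catalytic subunit of cytochrome c oxidase, was at 454, 479.8 and 471 CPM with WT and 2328, 2333 and 2404 CPM with PA (log2 fold change 2.33, SE 0.03, adjusted p = 3.56e-71). MT-ND1, a subunit of complex I, was at 24.2, 28.01 and 26.2 CPM with WT and 205, 185 and 216 CPM with PA (log2 fold change 2.95, SE 0.09, adjusted p = 7.10e-11). In both genes the WT libraries were the lowest of the 5 groups, below the shCtrl vector means of 1905 and 57.5 CPM. MT-ND5 rose by 2.17, and MT-ND3 moved least, by 0.43. The transfer RNA genes MT-TN and MT-TC were at 0.898, 0.526 and 0.683 CPM with WT and 46.5, 39.5 and 45.3 CPM with PA and at 1.28, 1.11 and 1.14 CPM with WT and 46.96, 45.6 and 47.5 CPM with PA, with log2 fold changes of 5.92 and 5.30, and MT-ND6 was at 5.25, 10.8 and 7.34 CPM with WT and 81.4, 53.3 and 52.5 CPM with PA (3.04, SE 0.45). These 3 lie on the other strand from most mitochondrial genes, where counting without strand cannot tell them from the opposite transcript. With the mitochondrial genes removed before scaling, 4733 genes were higher and 4819 lower.

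Nuclear genes of the respiratory chain went the other way, with 18 of 26 lower, none higher and a median of -0.27. The largest was NDUFV1, a complex I subunit gene, which fell by 0.72, followed by ATP5PO of ATP synthase with 0.65 and NDUFB5 with 0.55. Under library size scaling 12 were lower and 9 higher, with a median of -0.02, and with the GC and length offsets 13 were lower and 3 higher.

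**Figure D5:**
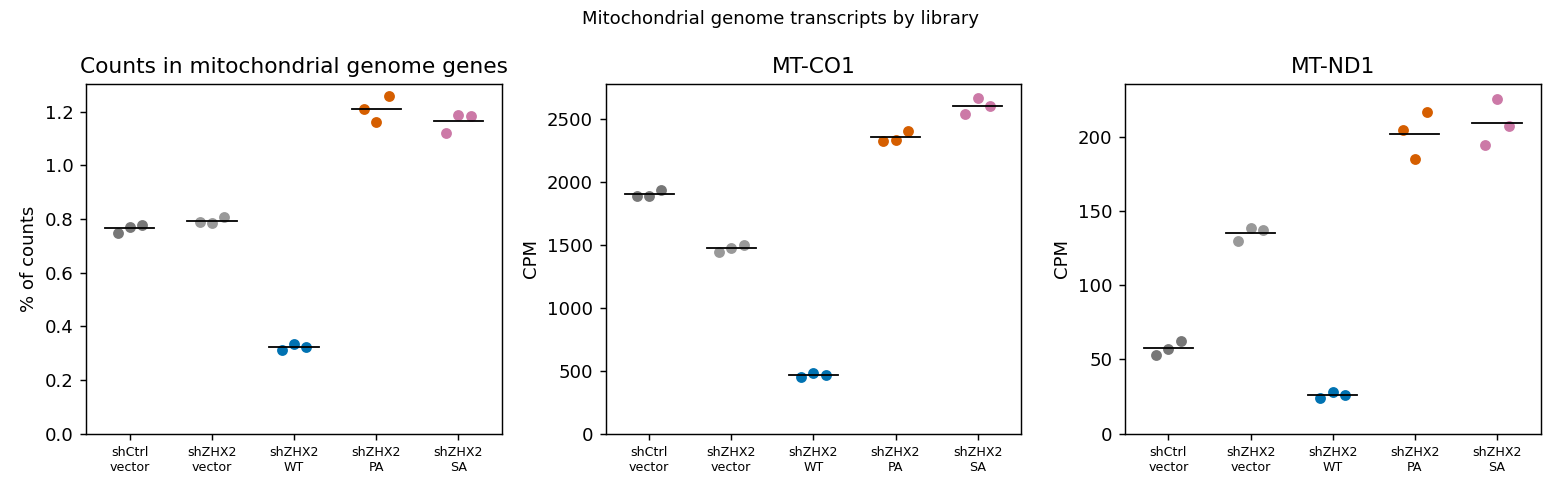
The left panel gives the % of each library's counts in mitochondrial genome genes, and the other panels the CPM of MT-CO1 and MT-ND1, with 1 point per library and a bar at the mean of 3 libraries, on linear axes from 0. The WT libraries are lowest in each panel, at 0.312 to 0.333% of counts, and the PA libraries stand at 1.16 to 1.26%.

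Lipid and detoxification genes showed no common direction. Of 22 cholesterol synthesis genes 9 were higher and 10 lower, with a median of -0.06 that flipped to 0.18 with library size as the only scaling and to 0.00 with the GC and length offsets. PMVK, the phosphomevalonate kinase gene, fell by 1.03. Of 11 fatty acid synthesis genes tested 4 were lower and 2 higher, with a median of -0.03 that flipped to 0.21 with library size as the only scaling. SCD, the stearoyl-CoA desaturase gene, was at 10305, 10404 and 10448 CPM with WT and 4384, 4403 and 4402 CPM with PA (log2 fold change -1.24, SE 0.02, adjusted p = 1.45e-56). ACACA fell by 0.36, SREBF1 by 0.25 and ACLY by 0.23, of which SREBF1 lost its call and ACLY turned to 0.01 with library size as the only scaling. FADS2 rose by 0.35 and FASN by 0.12. With the GC and length offsets FADS2 lost its call (0.09) and FASN was called lower (-0.29, adjusted p = 1.00e-19). Among 17 targets of the aryl hydrocarbon receptor and NRF2, which answer to xenobiotics and oxidants, 8 were higher and 6 lower. ALDH3A1 rose by 2.13 and AHRR by 1.29, both genes with a mean log2 CPM under 1. Among members above that level TIPARP fell by 0.74, while SLC7A11 rose by 0.73 and TXNRD1 by 0.66. Over all 21 lists, 149 of 382 members tested were higher (39.0%) and 182 lower (47.6%), against 33.2% and 33.7% over all genes.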

How the data were processed

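The authors deposited raw, whole-number read counts for each gene. The submitters' processing notes name HISAT2, featureCounts, FastQC and DESeq2 and the hg38 build, with no version. What each tool did, the annotation and whether strand was used: not given in the sources used here. The table lists 60624 genes by identifier, of which 60370 matched a symbol and 58437 a position in GENCODE release 29 (GRCh38).

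From these counts, edgeR 4.0.16 (R 4.3.3) removed low genes with filterByExpr, scaled libraries by TMM and fitted 1 quasi-likelihood model with robust dispersions to all 15 libraries (5 groups of 3, totals 18056398 to 24760885, biological coefficient of variation 3.16%). PA was contrasted with WT, with Benjamini-Hochberg adjustment over 14302 genes. The standard error was taken as the size of the log2 fold change over the root of F, and CPM uses TMM-scaled library sizes. Set c came from the same fit of the shRNA table. Replicate pairs differed by more than counting noise (chi-square per degree of freedom 1.77 to 2.28), so none was counted as a duplicate. Nothing in the labels says that replicate numbers pair libraries, so the main fit used no pairing.

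The comparison, the sets and the 21 gene lists were chosen with earlier results of these data known. Genes were named by a rule: ZHX2, the 12 largest rises and falls among called, non-overlapping genes with a proper symbol and a mean log2 CPM of 1 or more, up to 3 members per list and 6 per set; some of these are not reported here. Other named members, namely the exceptions to a list's direction, members without a call, IFNB1, IFNL1, CA9, NDRG1 and further members given by value only, were chosen after their values were seen. Of 25 interferon symbols 1 was unmatched. Scripts were tested on simulated counts. Alternatives were other scalings (relative log expression, library size only), low-count filters, DESeq2 1.42.0, a fit of the 6 libraries, a replicate block, offsets from a smooth fit on GC content and length, each replicate left out, and, added after seeing the data, removal of mitochondrial genes.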

Additional observations from a re-analysis of the deposited data

How the results depend on the processing

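The genes called at least 2-fold kept their call in most alternatives: between 689 and 764 of 764 lower and between 953 and 1060 of 1060 higher genes, apart from the minimum mean count of 50, which tests 10492 genes and left 402 and 545. With library size as the only scaling 2913 genes were lower, 1821 at least 2-fold higher and 420 at least 2-fold lower; with the minimum mean count the 2-fold counts were 540 and 405. Leaving out 1 replicate gave 4424 to 4533 higher and 4552 to 4821 lower, 1042 to 1129 and 757 to 855 at 2-fold, set a 742 to 768 lower, 12 to 17 higher and a median of -0.86 to -0.82, set b 725 to 732 higher, 15 to 30 lower and 0.89 to 0.94, set c 130 to 144 lower, 61 to 63 higher and -0.29 to -0.26, 318 to 327 list members called, and ZHX2 at -0.45 to -0.41.

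Set a genes called higher numbered 47 with library size only, 11 with no filter, 9 with the minimum count, 6 with DESeq2 and 10 with GC and length offsets. Its median was -0.84 with relative log expression and with DESeq2, -0.58 with library size only, -0.85 with no filter, -0.82 with the minimum count and -0.81 with the offsets. Set b genes called lower numbered 5 with library size only, 18 with the minimum count (462 higher) and 14 with DESeq2; its median was 0.90 with relative log expression and without mitochondrial genes, 1.15 with library size only, 0.89 with no filter and with the offsets, and 0.96 in the fit of the 6 libraries. Set c had a median of -0.0294 with library size only, -0.29 with no filter and with the minimum count, and -0.36 with the offsets. Without a fold minimum, set a gave 3089 lower, 636 higher and -0.35, set b 2949 higher, 820 lower and 0.37, and set c 1246 lower, 794 higher and -0.14. The cause was not tested.

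The replicate block gave 4728 higher and 4822 lower, and kept 763 and 1057 of the 2-fold calls. Same-number libraries correlated at 0.019, -0.034 and 0.061, and the other pairs at -0.071 to 0.052. So few values near 0 cannot decide whether the numbers pair libraries. Genes whose sign turned, printed beside them in the results, were ARNT 0.0575, CTCF 0.0920, FOXA1 0.0512, IFIT1 0.0307, IFITM3 0.141, SLC3A2 0.119, XBP1 0.0395 and ACLY 0.0145 with library size only, and CLDN4 -0.125, FASN -0.294, HSF1 -0.132, IFITM3 0.0349, ITGB4 -0.202, KDM4B -0.0359, MAU2 -0.114, MUC1 -0.244, VEGFA -0.0830 and XBP1 0.0350 with the offsets. With the offsets CLDN4, FASN, HSF1, ITGB4, MAU2, MUC1 and VEGFA were called lower, while IFITM3, KDM4B and XBP1 were not called. Low counts limit the precision for genes near 1 CPM.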

Other observations

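By gene type, 4255 of 12176 protein-coding genes (34.9%) were higher with PA and 4304 (35.3%) lower, close to the 33.2% and 33.7% over all genes. Long non-coding RNA genes had 314 of 1204 higher (26.1%) and 228 lower (18.9%), both below the shares over all genes, with a median log2 fold change of 0.14, and pseudogenes 120 of 766 higher (15.7%) and 275 lower (35.9%) with a median of -0.25. All 5 mitochondrial transfer RNA genes tested were higher, with a median of 4.55. Genes at least 2-fold lower had a median GC content of 48.9%, those at least 2-fold higher 54.6% and all genes 49.4%; across 14227 genes the fold change correlated with GC content at a Spearman rho of 0.16 and with length at 0.17, as a description, since genes share libraries. By chromosome the median log2 fold change ran from -0.18 on chromosome 18 (184 genes) to 0.16 on chromosome 16 (714 genes).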
